A study of Mus musculus with 10 samples.

Results

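Interleukin 1, TNF and inflammasome genes were examined in inner ear tissue of mice with and without a running wheel. The set holds 10 genes that were listed by symbol, namely Il1a, Il1b, Il18, Il6, Tnf, Il1rn, Nlrp3, Casp1, Il1r1 and Tnfrsf1a. Each was measured by 1 probe set that the platform annotation pairs with that gene alone, so all 10 of 10 were measured, out of 29766 genes tested. The samples came from CBA/CaJ mice, an inbred strain that loses hearing late in life, at 6 months of age and with normal hearing. Runners (5 samples, numbered 1 to 5) were housed singly with a running wheel, and controls (5 samples, numbered 1 to 5) were housed singly without a wheel. The series asks about voluntary wheel running over the long term and its effects on the ageing ear, and both groups here are young. The distance run and the sex of the mice are not stated, nor is the number of animals behind an array, so the p-values rest on variation among these samples that may be technical.

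Interleukin 1 alpha, interleukin 1 beta and TNF are cytokines that switch on NF-kappa-B and so raise the transcription of other inflammatory genes. Inflammasomes are cytosolic complexes in which a sensor such as NLRP3 activates caspase 1, which then cuts the precursors of interleukin 1 beta and interleukin 18 into their active forms. In the inner ear these cytokines are known from cochlear macrophages and from cells of the lateral wall, and they rise after noise and infection. Much of their control lies after transcription, which RNA levels do not show.

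The tissue label is cochlea, the hearing organ, while the protocol names inner ear tissue. Of 7 hair cell markers all 7 lay above the background level defined below, between 4.34 (Slc26a5, prestin) and 7.59 (Myo6) on the log2 scale. Markers of blood-forming and neighbouring tissue were present too, with S100a9 of the neutrophil list at 11.7, Alas2 of the erythroid list at 9.67, Gabra6 (brain) at 10.7 and Myh1 (skeletal muscle) at 9.13. Runner 1 had the highest mean of the runners on several marker lists, of blood cells and of the ear itself. By the rule for a closer look given at the end, it stood apart only on the neutrophil and macrophage lists. The mean of 11 neutrophil lineage markers was 9.67 in runner 1 and 9.08 to 9.16 in runners 2 to 5, against 9.11 in control 1 and 9.34 to 9.53 in controls 2 to 5. The mean of 11 macrophage and microglia markers was 6.64 in runner 1 and 6.22 to 6.26 in runners 2 to 5, against 6.43 in control 1 and 6.49 to 6.60 in controls 2 to 5. The supporting cell mean was 7.03 in runner 1 and 6.41 to 6.62 in runners 2 to 5, against 6.78 to 7.01 in controls. The spiral ligament mean was 8.07 in runner 1 and 7.34 to 7.70 in runners 2 to 5, against 7.82 to 7.99 in controls. The hair cell mean was 5.82 in runner 1 and 5.37 to 5.61 in runners 2 to 5, against 5.60 to 5.81 in controls. Runner 1 was thus above every control on all 5 of these lists, and on the T and NK list. It was below every control on the B lineage mean (6.48, controls 6.49 to 6.93). Its stria vascularis, erythroid, monocyte, mast cell and skeletal muscle means lay within the range of the controls. On the spiral ganglion neuron and brain means it was the lowest runner, also within that range. Because of the lists on which runner 1 stood apart, results are also given without runner 1. A further setting leaves out control 1 as well, the lowest control on the neutrophil and macrophage means. The rule for a closer look flagged no control, and control 1 was picked with earlier results of these data known. In whole tissue, fewer cells of a type and less RNA per cell cannot be told apart.

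The stretches just before the transcription start are shown for 5 members, the 3 with the smallest p (Il1a, Tnf and Casp1), the one with the widest spread (Il1b) and the one at background (Il6), to show the promoters of the genes on which the results turn. The sequences are from RefSeq on mouse build GRCm38.p6, the 150 bases before the start, 5′ to 3′ on the gene's strand. Capitals mark matches, on either strand, to the TATA box (TATAAA), AP-1 (TGANTCA), C/EBP (TTGCNNAA), the PU.1 core (GAGGAA) or the NF-kappa-B consensus.
Il1a, chr2:129309973-129310122, minus strand: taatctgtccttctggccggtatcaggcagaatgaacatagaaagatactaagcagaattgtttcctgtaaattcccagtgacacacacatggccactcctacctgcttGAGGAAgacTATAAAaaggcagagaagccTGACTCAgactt
Tnf, chr17:35202008-35202157, minus strand: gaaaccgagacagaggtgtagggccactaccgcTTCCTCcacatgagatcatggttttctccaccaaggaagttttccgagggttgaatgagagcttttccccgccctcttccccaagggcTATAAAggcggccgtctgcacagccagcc
Casp1, chr9:5298367-5298516, plus strand: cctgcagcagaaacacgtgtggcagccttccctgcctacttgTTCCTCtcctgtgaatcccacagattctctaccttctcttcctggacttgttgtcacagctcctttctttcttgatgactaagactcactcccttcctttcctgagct
Il1b, chr2:129371140-129371289, minus strand: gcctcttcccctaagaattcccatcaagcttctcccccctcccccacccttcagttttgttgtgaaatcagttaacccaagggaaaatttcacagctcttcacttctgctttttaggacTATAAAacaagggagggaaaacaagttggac
Il6, chr5:30012964-30013113, plus strand: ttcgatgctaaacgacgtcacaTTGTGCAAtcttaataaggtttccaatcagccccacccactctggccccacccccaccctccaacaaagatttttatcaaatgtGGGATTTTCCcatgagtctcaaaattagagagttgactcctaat
A TATA box match stood 32 bases before the start of Il1a, 31 before that of Il1b and 29 before that of Tnf, the 3 members with such a match, against 7.57% of all 32851 promoter windows of this length. The NF-kappa-B consensus was matched 44 bases before the start of Il6 and in no other member, against 4.60% of all windows. The PU.1 core was matched in Il1a, Tnf, Casp1 and Nlrp3, against 14.5% of all windows, and overlapped no other match. AP-1 was matched in Il1a and Il1rn, against 4.24% of all windows, and C/EBP in Il6 and Il1r1, against 5.46%. Matches of members are counted by gene, over the 14 windows of the 10 members, of which 7 had 1 window. The shares given beside them are of single windows, so the measures differ. A match describes the letters of the window, and its absence says nothing about a factor.

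Il6 was at background. As a measure of background, 1383 olfactory and vomeronasal receptor genes, which are not expected in the ear, had a median log2 level of 2.48, a 95th percentile of 4.13 and a 99th percentile of 4.98. Probe sets differ in brightness for the same amount of RNA, so this is a rough guide. Il6, a cytokine released by many stimulated cells, had log2 levels of 2.73, 2.49, 2.51, 2.62 and 2.59 in runners 1 to 5, against 2.41, 2.52, 2.58, 2.57 and 2.46 in controls 1 to 5. All 10 values lay below the 95th percentile of the receptor genes and 2 lay below their median, so a difference in Il6 was not measurable at this signal (0.080 ± 0.061, SE; limma adjusted p = 0.806). The other 9 members were above the 95th percentile on all 10 arrays. The means of Il1a, Il18 and Nlrp3 lay below the 99th percentile, as Il6 did, and differences of genes this dim are generally understated by arrays. Tnf, with a mean of 5.05, was little above the 99th percentile. It was above that level on 7 of 10 arrays, with runners 3, 4 and 5 below it. Il1rn was above that level on 7 arrays and Il1b on 8.

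**Figure D1:**
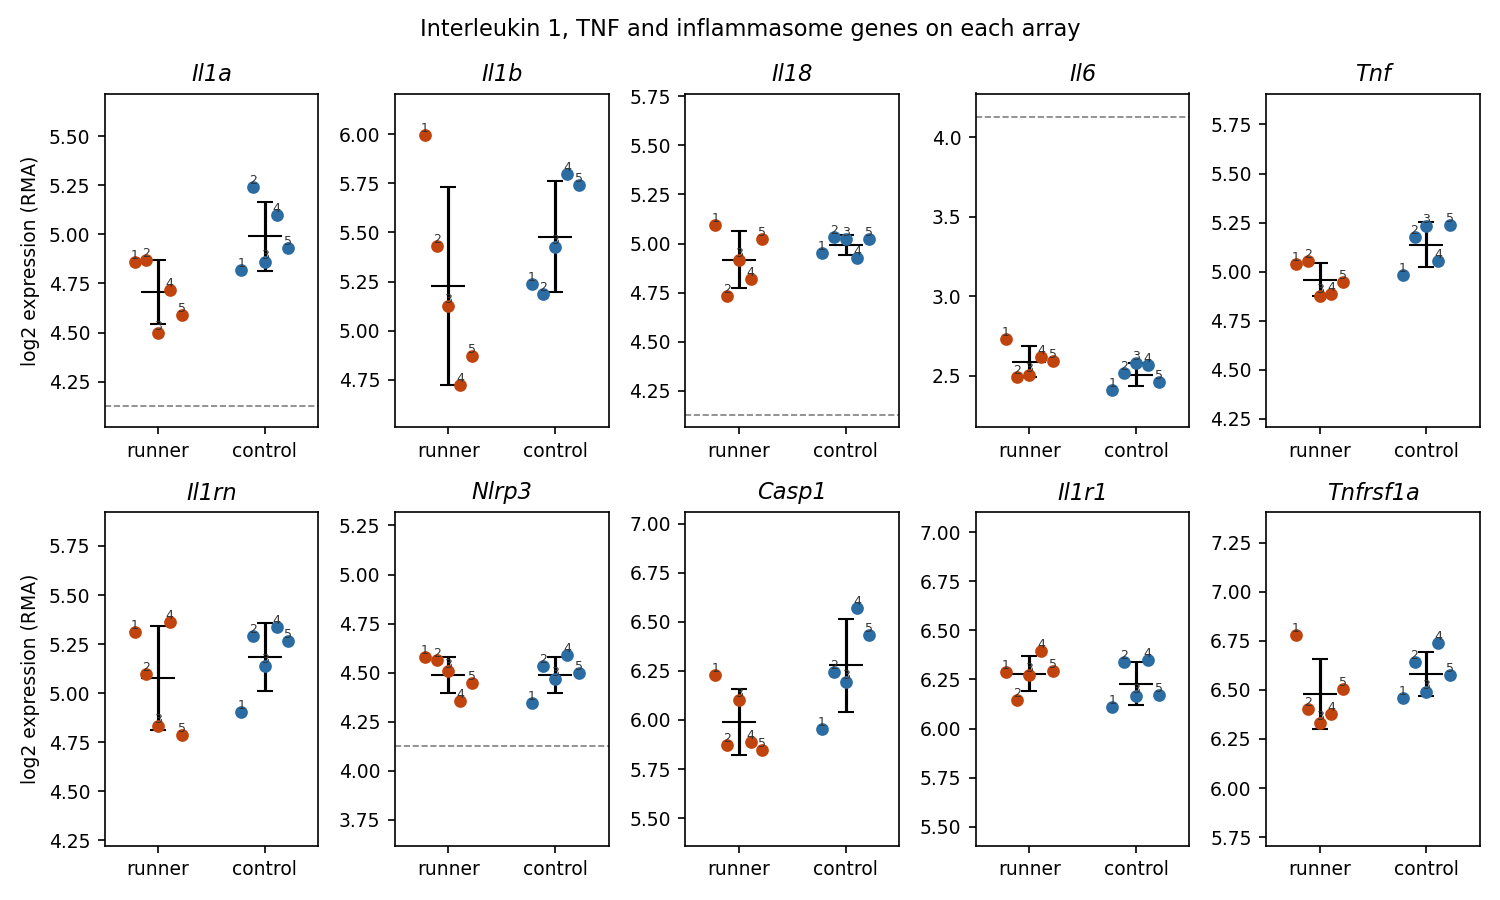
Log2 expression of the 10 genes on each array, runners left and controls right, with array numbers beside the points, the mean as a bar and the SD as whiskers. The dashed line, drawn where it falls in range, is the background level of 4.13, and Il6 is the gene whose 10 points lie below it. Panels differ in their axis range.

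None of the 10 genes passed the test between runners and controls, where the test called 2 of all 29766 genes, or 0.00672%. The smallest limma adjusted p among them was 0.607. Of the 10 genes, 7 had a lower mean in runners and 3 a higher one, and their median difference was -0.10 (log2), where 49.5% of all genes had a lower mean and the median difference of all genes was 0.00091. At an unadjusted p under 0.05, Il1a, Tnf and Casp1 were lower, which 3.92% of all genes were, and no member was higher, where 3.21% of all genes were, or 7.13% in either direction. The groups overlapped for all 10 members, and they did not overlap for 0.927% of all genes. The members were listed with earlier results of these data in view, so their share is a description and is not a test of the set.

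Among the ligands, Il1a, which encodes the interleukin 1 that acts without caspase 1, had log2 levels of 4.86, 4.87, 4.50, 4.72 and 4.59 in runners 1 to 5, against 4.82, 5.24, 4.86, 5.10 and 4.93 in controls 1 to 5. Runners 3, 4 and 5 lay below every control, while runners 1 and 2 lay among the lower controls. The difference was -0.28 ± 0.097 (SE; 95% interval -0.49 to -0.073; limma unadjusted p = 0.0122, limma adjusted p = 0.607). The exact permutation test of this value gave p = 0.0476 (two-sided, n = 5 in each group), where the smallest possible is 0.00794.

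Tnf, the founding cytokine of its family, had log2 levels of 5.04, 5.05, 4.88, 4.89 and 4.95 in runners 1 to 5, against 4.98, 5.18, 5.24, 5.06 and 5.24 in controls 1 to 5. Runners 3, 4 and 5 again lay below every control, and control 1 was the only control below runners 1 and 2. The difference was -0.18 ± 0.067 (SE; 95% interval -0.32 to -0.034; limma adjusted p = 0.611; exact permutation p = 0.0317, two-sided). On the linear scale the mean difference is -11.7% for Tnf and -17.8% for Il1a.

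Il1b, the interleukin 1 that caspase 1 activates, varied more than any other member. It had log2 levels of 5.99, 5.43, 5.13, 4.72 and 4.87 in runners 1 to 5, against 5.24, 5.18, 5.43, 5.80 and 5.74 in controls 1 to 5. Runner 1 was the highest and runner 4 the lowest of the 10 arrays, a 2.42-fold range within the runners. The difference was -0.25 ± 0.21 (SE; 95% interval -0.71 to 0.21; limma adjusted p = 0.821), and the interval holds changes of either direction. Leaving out runner 1 gave -0.44, runner 4 -0.12 and runner 5 -0.16, none of them called.

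Il18, made as a precursor by epithelial cells and macrophages, lay between 4.73 and 5.09 in runners and between 4.93 and 5.03 in controls. Its difference of -0.075 ± 0.070 (SE; 95% interval -0.23 to 0.078) was within the spread between arrays (limma adjusted p = 0.846), and it was -0.12 without runner 1 and -0.029 without runner 2. Il1rn, whose product occupies the interleukin 1 receptor without activating it, ranged between 4.79 and 5.36 in runners and between 4.91 and 5.33 in controls. Its difference was -0.11 ± 0.12 (SE; 95% interval -0.37 to 0.15; limma adjusted p = 0.878), and it lay between -0.18 (without runner 4 or control 1) and -0.035 (without runner 5), with -0.047 without runner 3, -0.17 without runner 1 and -0.071 without control 4. The 5 runners of Il1rn fell on both sides of the controls, with runner 4 above and runners 3 and 5 below all of them.

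Of the inflammasome genes, Casp1 had the larger difference. Casp1, which encodes the protease caspase 1, had log2 levels of 6.23, 5.87, 6.10, 5.89 and 5.85 in runners 1 to 5, against 5.95, 6.24, 6.20, 6.57 and 6.43 in controls 1 to 5. Runners 2, 4 and 5 lay below every control, while runner 3 lay above control 1 and runner 1 above controls 1 and 3. The difference was -0.29 ± 0.11 (SE; 95% interval -0.53 to -0.046; limma adjusted p = 0.632; exact permutation p = 0.0476, two-sided), or -18.2% on the linear scale. Nlrp3, the sensor, ranged between 4.35 and 4.58 in runners and between 4.35 and 4.59 in controls. Its difference was 0.0031 ± 0.064 (SE; 95% interval -0.13 to 0.14; limma adjusted p = 0.997), and its sign turned under 7 of 21 alternative settings.

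Of the receptors, Il1r1, which binds both forms of interleukin 1, ranged between 6.15 and 6.40 in runners and between 6.11 and 6.35 in controls. Its difference was 0.052 ± 0.067 (SE; 95% interval -0.093 to 0.20; limma adjusted p = 0.897). It was 0.022 without control 1 or runner 4, and 0.082 and 0.085 without control 4 or runner 2, with 0.080 without control 2. Tnfrsf1a, the widely expressed TNF receptor, was at 6.78 in runner 1 and at 6.33 to 6.50 in runners 2 to 5, against 6.46 to 6.74 in controls. Runner 1 was above all controls and runners 2, 3 and 4 were below all of them, and the difference was -0.10 ± 0.087 (SE; 95% interval -0.29 to 0.088; limma adjusted p = 0.823). Leaving out runner 1 gave -0.18, leaving out runner 3 gave -0.065 and leaving out control 4 gave -0.062.

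**Figure D2:**
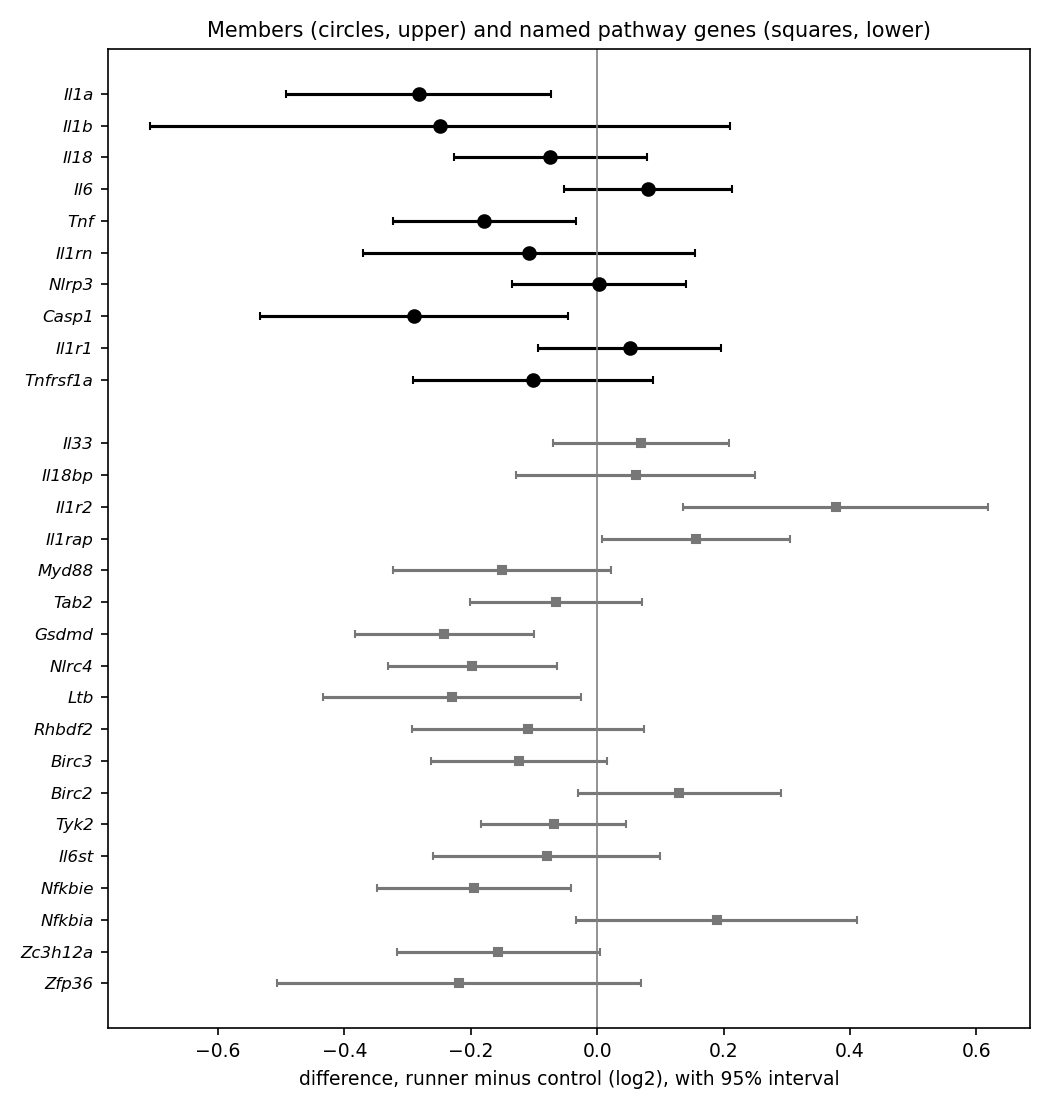
Differences between runners and controls (runner minus control, log2) with 95% intervals, for the 10 members above and 18 other genes of the pathway below. The intervals of Il1a, Tnf and Casp1 lie below 0 and that of Il1b is the widest among the members, at -0.71 to 0.21. Intervals are not adjusted for the number of genes.

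Averaged over the 10 members, runner 1 lay 0.16 from the mean of all arrays, and runners 2 to 5 lay -0.062, -0.13, -0.12 and -0.14 from it. Controls 1 to 5 lay -0.11, 0.091, 0.029, 0.17 and 0.11 from it. Runner 1 and control 4 were thus the highest arrays, and control 1 was the one control below that mean. Runner 1 was the highest array for 4 members, and control 1 and runner 3 were each the lowest for 3. Without runner 1, 0 of the 10 genes passed the limma test, where 0.333% of all genes did, and 5 had an unadjusted p under 0.05, all lower, where 8.59% of all genes were. These were Il1a, Tnf, Casp1, Il1b and Tnfrsf1a, with limma adjusted p between 0.155 and 0.253. Without runner 1 and control 1, the same 5 had such a p, again all lower, where 9.07% of all genes did (15.5% in either direction), and 0 passed the limma adjusted threshold, where 1.43% of all genes did. Casp1 came nearest, with a difference of -0.43 ± 0.093 (SE; limma adjusted p = 0.0522), before Il1a at -0.36 ± 0.10 (adjusted p = 0.109) and Tnf at -0.24 ± 0.067 (adjusted p = 0.110). In this setting runners 2 to 5 lay below controls 2 to 5 without overlap for Tnf and Casp1, as they did for 5.98% of all genes. No member was higher at an unadjusted p under 0.05 in this setting, where 6.41% of all genes were, or higher without overlap, where 4.18% were. Il1b differed by -0.50 ± 0.17 (SE; adjusted p = 0.169) and Tnfrsf1a by -0.21 ± 0.069 (SE; adjusted p = 0.172) in it. Both arrays were picked with earlier results of these data known, so this setting is no independent test. Runner 1 was the highest runner and control 1 the lowest control in the average over the members. Leaving out both therefore makes that average difference more negative.

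**Figure D3:**
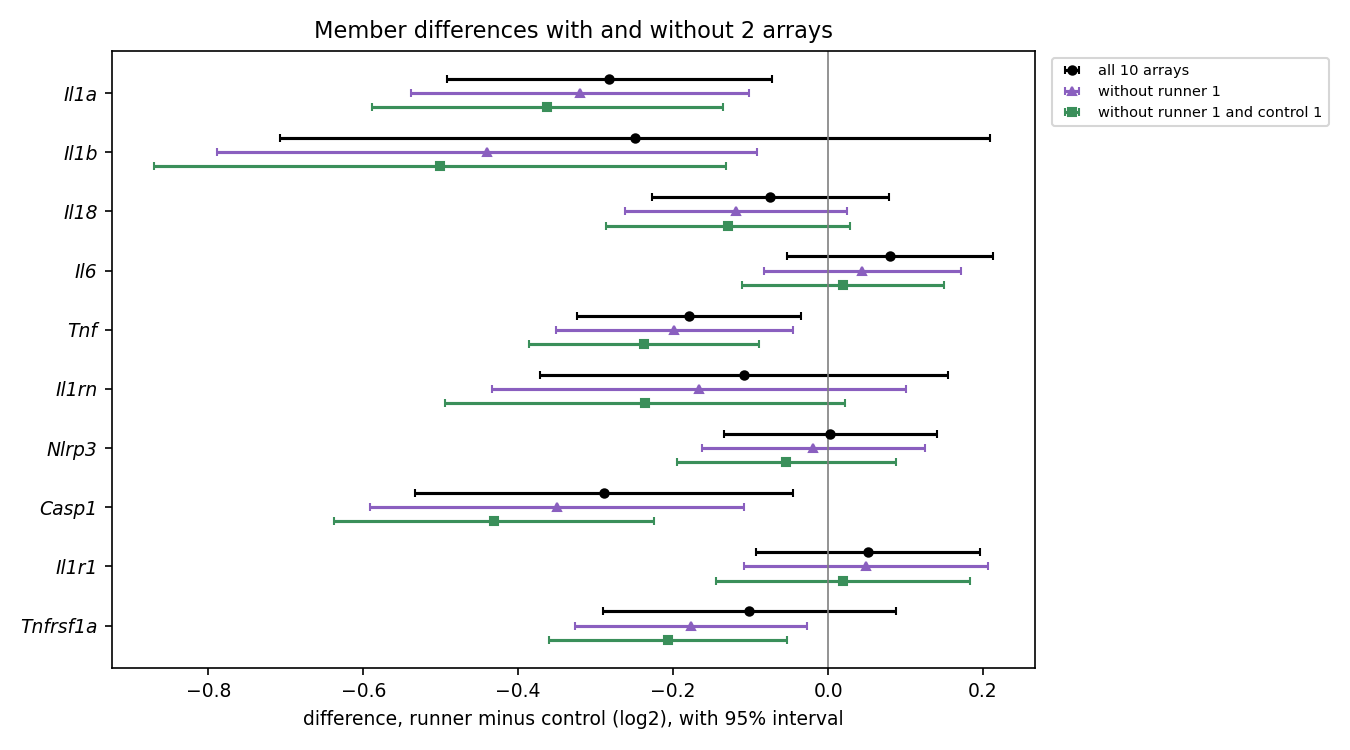
Difference (runner minus control, log2) and 95% interval of each member over all 10 arrays, without runner 1, and without runner 1 and control 1. Il1b moves to -0.44 without runner 1, and Casp1 to -0.43 without both arrays.

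In the marker lists of blood-forming and immune cells, most markers had a lower mean in runners, except for T and NK cells, and no marker in any of the 14 lists passed the limma adjusted threshold. Shares of all genes at an unadjusted p under 0.05 were 3.92% lower and 3.21% higher. Exact permutation tests of the list means (two-sided) gave p = 0.349 for neutrophils, 0.0476 for macrophages, 0.00794 for B lineage, 0.254 for monocytes, 0.730 for T and NK cells and 0.0714 for mast cells, without adjustment for the number of lists. Of 11 neutrophil lineage markers 10 had a lower mean in runners, and 1 of them had an unadjusted p under 0.05, while the list mean spanned 9.08 to 9.67 in runners and 9.11 to 9.53 in controls. All 11 macrophage and microglia markers had a lower mean in runners, 5 of them with such a p, and the list mean spanned 6.22 to 6.64 in runners and 6.43 to 6.60 in controls. The 5 measured of 6 listed B lineage markers all had a lower mean with such a p, and the list mean spanned 5.98 to 6.48 in runners and 6.49 to 6.93 in controls. The B lineage mean was thus the one of these 3 on which the groups did not overlap. Monocyte markers had a lower mean in 4 of 5, 1 with such a p, and spanned 7.73 to 8.01 in runners and 7.72 to 8.16 in controls. T and NK markers had a higher mean in 5 of 7, 1 with such a p, and spanned 4.96 to 5.28 in runners and 4.95 to 5.12 in controls. Mast cell markers had a lower mean in 5 of 5, 1 with such a p, and spanned 4.27 to 4.59 in runners and 4.46 to 4.74 in controls, and 2 of them were below the background level. No marker of the neutrophil, macrophage, monocyte or B lineage lists was below it. All measured markers also had a lower mean in the lists for spiral ligament (2 of 4 with such a p), erythroid cells (2 of 4), stria vascularis (4 of 5), supporting cells (3 of 5) and hair cells (2 of 7). Their list means differed by -0.27 (spiral ligament), -0.26 (erythroid), -0.28 (stria vascularis), -0.30 (supporting) and -0.17 (hair cells), against 0.066 for spiral ganglion neurons, 0.12 for brain and -0.062 for skeletal muscle. The immune cell means differed by -0.13 (neutrophil), -0.21 (macrophage), -0.51 (B lineage), -0.11 (monocyte), 0.029 (T and NK) and -0.15 (mast cell). The same exact permutation test gave p = 0.0238 for stria vascularis, 0.0476 for supporting cells, 0.0635 for spiral ligament and 0.0714 for erythroid cells. It gave 0.103 for hair cells, 0.389 for spiral ganglion neurons, 0.278 for brain and 0.778 for skeletal muscle. The part of any of these cells in the members' differences was not tested. Because the arrays fell into separate sets on the neutrophil and macrophage means, no correlation with the members is given.

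**Figure D4:**
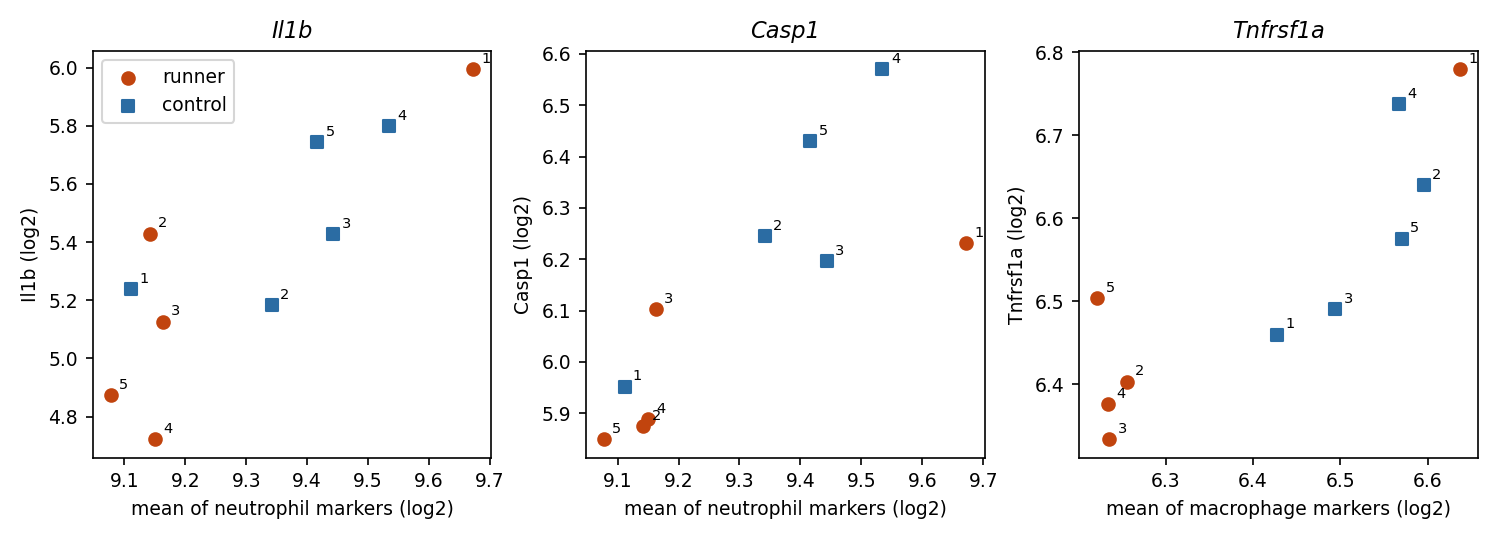
Log2 level of Il1b and Casp1 against the mean of 11 neutrophil lineage markers, and of Tnfrsf1a against the mean of 11 macrophage and microglia markers, each point 1 array with its number. Runner 1 has the highest neutrophil mean, 9.67, and the highest Il1b, 5.99. Runners 2 to 5 and control 1 lie to the left on the neutrophil axis. Runner 1 is also highest on both axes for Tnfrsf1a, whereas Casp1 is highest in control 4, at 6.57, with runner 1 at 6.23. The pairs shown are examples chosen without a stated rule, and the part of these cells in the members' differences was not tested.

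Genes whose levels followed those of Il1a, Il1b and Tnf most closely over the 10 arrays were sought among 16411 others by Pearson correlation, as a description of the nearest patterns. Il1a was closest to Ms4a1 (r = 0.968), which encodes the B cell antigen CD20 and is in the B lineage list, then to Ppp6r1 (0.966) and Pola2 (0.961), a subunit of DNA polymerase alpha. Ms4a1 itself differed by -0.56 between runners and controls, without passing the limma test. Il1b was closest to Cd300lb (0.971), a receptor of myeloid cells, then to Pdxdc1 (0.966) and Aldh2 (0.939). Tnf was closest to Urod (0.922), an enzyme of heme synthesis, then to Pla2g12a (0.915) and Snx22 (0.910). With the group means taken out, Cd300lb (0.978) and Pdxdc1 (0.968) were again nearest to Il1b, followed by Add3 (0.959). Rbm38 (0.981), St3gal1 (0.978) and Rfx2 (0.978) were then nearest to Il1a, and Tent5b (0.926), U2af2 (0.904) and Cylc2 (0.902) to Tnf. Cylc2, at a mean of 3.09, was below the background level. The highest of so many correlations is high by selection, and it carries no p here.

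Around the members, 73 of 84 listed genes of the same pathways were measured, and none passed the limma test in either direction, the smallest adjusted p being 0.539. At an unadjusted p under 0.05, 4 were lower (5.48%, where 3.92% of all genes were) and 2 higher (2.74%, where 3.21% of all genes were). Of the 73, 52 had a lower mean in runners, and their median difference was -0.047.

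The inflammasome partners held 2 of the 4 lower genes, and 10 of 11 measured had a lower mean in runners (median difference -0.079). Gsdmd encodes gasdermin D, the protein that inflammatory caspases cut to open pores in the cell membrane. Its log2 levels were 6.26 to 6.60 in runners, with a median of 6.40, and 6.60 to 6.68 in controls, with a median of 6.65. All 5 runners lay below all 5 controls, as for 0.548% of all genes, though the highest runner and the lowest control were nearly equal. The difference was -0.24 ± 0.066 (SE; limma adjusted p = 0.539; exact permutation p = 0.00794, two-sided, the smallest possible). Without runner 1 and control 1 it was -0.30 and was called (limma adjusted p = 0.0434), where 1.43% of all genes were, against 0.00672% over all 10 arrays. That setting leaves out runner 1, the highest runner at 6.60. Nlrc4, the other of the 2 lower inflammasome partners, differed by -0.20 ± 0.062 (SE; limma adjusted p = 0.592), but its levels of 3.56 to 3.81 in runners and 3.73 to 3.94 in controls were below the background level.

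The receptors of the interleukin 1 family held both higher genes. Il1r2, a decoy receptor that binds interleukin 1 without signalling, had log2 levels of 5.28 to 5.74 in runners, with a median of 5.36, and of 4.91 to 5.36 in controls, with a median of 4.97. Of the runners, 2 lay above every control. The difference was 0.38 ± 0.11 (SE; 95% interval 0.14 to 0.62; limma adjusted p = 0.583; exact permutation p = 0.0317, two-sided). It was 0.31 without runner 1 and 0.28 without runner 1 and control 1. Il1rap, the accessory chain that the signalling and decoy receptors share, spanned 4.99 to 5.38 in runners and 4.98 to 5.05 in controls, and 4 of 5 runners lay above every control. Its difference was 0.16 ± 0.069 (SE; limma adjusted p = 0.678). For Il1rap it was 0.20 without runner 1 and 0.21 without runner 1 and control 1. Neither Il1r2 nor Il1rap was called in these settings. The other 4 measured genes of that list had a lower mean in runners, by at most 0.098 in size.

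In the TNF group all 6 measured ligand, receptor and shedding genes had a lower mean in runners (median difference -0.071). Ltb, which encodes the lymphotoxin beta of lymphocytes, spanned 6.65 to 7.09 in runners and 6.79 to 7.15 in controls, and differed by -0.23 ± 0.094 (SE; limma adjusted p = 0.652). Without runner 1 and control 1 it differed by -0.36 and was called (limma adjusted p = 0.0381), so that Ltb and Gsdmd were the 2 of 73 pathway genes called in that setting, where 1.43% of all genes were. For Ltb, runner 1 was the highest runner (7.09) and control 1 the lowest control (6.79). Rhbdf2, a cofactor of the protease that sheds TNF, differed by -0.11 ± 0.085 (SE). Of 8 genes that signal below the TNF receptors 7 had a lower mean, with 0 at an unadjusted p under 0.05. The ubiquitin ligases Birc3 and Birc2 differed in opposite directions, by -0.12 ± 0.064 and 0.13 ± 0.074 (SE).

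The signalling genes had small median differences. Of 9 genes below the interleukin 1 receptor, 7 had a lower mean (median difference -0.030), led by the adaptor Myd88 at -0.15 ± 0.080 (SE; limma adjusted p = 0.729) and the kinase partner Tab2 at -0.066 ± 0.063 (SE). Of 10 NF-kappa-B genes 7 had a lower mean (median difference -0.047). The inhibitor gene Nfkbie differed by -0.20 ± 0.071 (SE; limma adjusted p = 0.607), whereas the inhibitor gene Nfkbia, a rapid target of NF-kappa-B, differed by 0.19 ± 0.10 (SE; limma adjusted p = 0.729) and was higher in 4 of 5 runners than in every control. Of 7 genes of interleukin 6 signalling 5 had a higher mean (median difference 0.011), with Tyk2 at -0.069 ± 0.053 and the shared receptor chain Il6st at -0.080 ± 0.083 (SE).

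Of 13 genes that these cytokines induce, 8 had a lower and 5 a higher mean in runners (median difference -0.047), and limma gave none of them an unadjusted p under 0.05. The RNA-degrading regulators Zc3h12a and Zfp36, which limit cytokine messages, differed by -0.16 ± 0.074 and -0.22 ± 0.13 (SE; limma adjusted p = 0.704 and 0.760). Of the 3 measured ligands and antagonists of the interleukin 1 family beside the members, the alarmin Il33 differed by 0.069 ± 0.064 and Il18bp, which traps interleukin 18, by 0.061 ± 0.087 (SE).

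**Figure D5:**
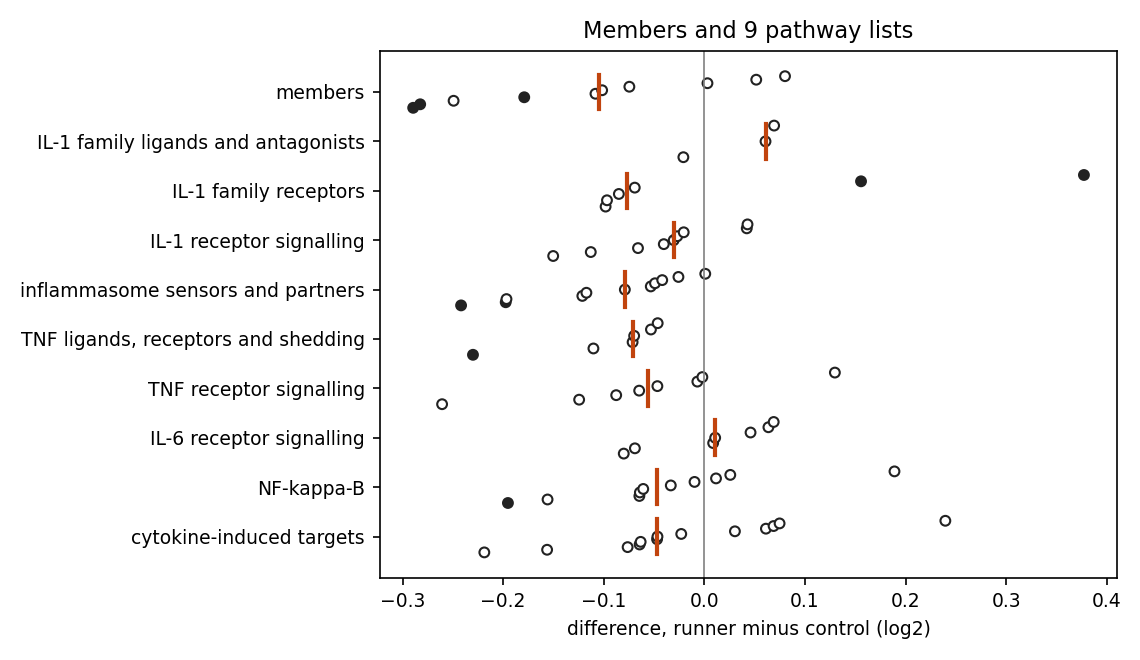
Difference of every measured gene (runner minus control, log2) among the 10 members and in 9 pathway lists, with list medians as vertical bars and genes at an unadjusted p under 0.05 filled. No gene shown passed the adjusted threshold over all 10 arrays, and the gene farthest to the right, at 0.38, is Il1r2.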

How the data were processed

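Inner ear tissue was frozen and ground, and its total RNA was biotin-labelled for 1 array per sample, per the labels' protocols. The deposited values are log2 expression per transcript cluster, made with RMA (background correction, quantile normalization, probe summary) and Partek, per the submitters' processing notes. The sources used here do not give versions, chip, build or filters. Quantile normalization hides changes shared by most genes.

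Of 39295 probe sets, 30130 had 1 symbol, 2146 several and 7019 none, and 827 symbols were updated through Entrez identifiers to RefSeq names (GRCm38.p6). For 294 genes with several probe sets the one of highest mean was kept, leaving 29766 genes, and each member had 1 probe set. The fit over all genes used R 4.3.3 and limma 3.58.1 (functions lmFit and eBayes with no term but group, two-sided tests, Benjamini-Hochberg adjustment over all genes, called at an adjusted p under 0.05), beside exact permutation tests over all 252 assignments of arrays. Differences are runner minus control with the moderated SE. The fit was tested on simulated arrays with independent noise for each gene and array. It called 78 of 100 genes changed by 0.5 (log2), 97 of 100 changed by 1.0, and 4 unchanged genes. Deviations shared by the genes of an array, and changes as small as those of the members, were not simulated.

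The members, the 9 pathway lists (84 genes), the 14 marker lists and the alternatives were chosen with earlier results of these data known. Named genes are the 10 members, the 2 genes of smallest unadjusted p in each pathway list, and the 3 genes most like each of Il1a, Il1b and Tnf, leaving out predicted, non-coding and multigene family symbols. These were left out by letter patterns, which also dropped some ordinary coding genes, such as those whose symbols end in os. Where the text names a marker, it is the brightest of its list or, for hair cells, the dimmest and brightest. The number of arrays, 5 in each group, limits the precision. Motifs and promoters to show were chosen after the values were seen. CRE, ISRE, GAS and a longer PU.1 pattern were also searched, in longer windows, and are not reported. The name exclusions were tightened after a first run, which named the same genes. Correlations of members with marker lists were computed and left out.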

Additional observations from a re-analysis of the deposited data

Results flagged for a closer look

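In groups of 5, a sample was looked at again when its gap to the nearest other exceeded 0.71 of the group's range (Dixon's 95% value), which chance gives in about 1 of 20 groups. Of 84 groups checked, 3 did so, and no member was among them. Runner 1 had a neutrophil lineage marker mean of 9.67, where the other runners had 9.08 to 9.16, and a macrophage and microglia marker mean of 6.64, where they had 6.22 to 6.26. Nfkbia was at 8.24 in runner 2, where the other runners had 8.63 to 8.79.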

How the results depend on the processing

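None of the 10 members passed under any of 21 alternatives (20 for Il6, which the filter on dim genes removes), and of 209 member values 202 kept their direction. The 7 others were all of Nlrp3, at -0.021 with array weights, -0.054 without runner 1 and control 1, and between -0.032 and -0.0016 without runner 1, 2 or 3 or control 1 or 3. Over all 10 single arrays left out, Nlrp3 spanned -0.032 to 0.037. The number of members lower at an unadjusted p under 0.05 was 3, and it was between 1 (without control 5) and 5 (without runner 1) when single arrays were left out. Over all genes the count of calls was 2, against 1 without moderation of the variance, 15 with array weights, 426 without runner 1 and control 1, and 2 to 99 when single arrays were left out, 99 being without runner 1. Of the pathway genes 2 were called without runner 1 and control 1, and 0 in the other settings. Centring on medians moved the median difference of all genes to 0.024, and genes with an unadjusted p under 0.05 then numbered 1580 higher and 843 lower, against 955 and 1168. With the background set at the median of the receptor genes 0 members lay below it, with the 99th percentile 4 did, against 1 with the 95th percentile. The replicate numbers share no stated source, and same-numbered arrays correlated at -0.25 to 0.28 after group means were removed. With a replicate block 2 genes, 0 members and 0 pathway genes were called, the smallest adjusted p of a member being 0.716. Dim signal limits Il6 most.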
